A study of Mus musculus with 4 samples.

Results

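Autophagy and mitophagy genes were followed in LSK cells, the bone marrow fraction without lineage markers and with c-Kit and Sca1, which holds haematopoietic stem cells and multipotent progenitors. The set was a list of 39 genes of autophagosome formation, cargo recognition and mitochondrial clearance, and every probe set annotated to 1 of these genes alone was taken. That gave 86 of 45037 probe sets and 37 of 18193 genes. Bnip3l had 3 probe sets, all shared with its pseudogene, and Optn had no probe set named in the annotation used here, so neither counts among the 37.

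The study compared LSK cells with a high level (Hi) against LSK cells with a low level (Lo) of a c-Myc-eGFP fusion protein, with 2 Affymetrix mouse 3′ arrays in each group. Both groups were femoral marrow cells of mice whose strain is given as WT B6/129, sorted on the green signal; both carry the fusion protein, so WT cannot mean an unmodified Myc gene. The labels do not state age, sex or the number of mice per array, and the p-values measure the spread between 2 arrays per group, which may be technical. The 5 ng of total RNA per array was amplified before labelling, and a level below is a log2 intensity. These arrays measure populations, so fewer cells of a type and less RNA per cell cannot be told apart.

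Autophagy encloses cytoplasm in a double membrane that fuses with the lysosome. A kinase complex around Ulk1 or Ulk2 starts it, a lipid kinase complex around Pik3c3 marks the growing membrane with PI3P, and a ubiquitin-like conjugation system fixes the Atg8 proteins (LC3 and GABARAP) to it. Receptors such as p62 tether cargo to the Atg8 proteins; in mitophagy the cargo is a mitochondrion, marked through Pink1 or through receptors of its outer membrane. In mice the pathway is known to be needed for stem cell maintenance in the marrow and for the removal of mitochondria from maturing red cells.

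Most of the genes had lower transcript levels in Hi than in Lo, by modest amounts, and no single gene passed the test. With each gene represented by its brightest probe set, 31 of 37 differences of Hi minus Lo were negative, against 46.4% over all 18193 genes. After the arrays were shifted to 1 median 27 of the 37 were negative, against 36.4% of all genes. Before the shift the median difference was -0.34 on the log2 scale, against 0.03 over all genes. After that shift the medians were -0.24 for the 37 genes and 0.12 for all genes. Both Hi arrays lay below both Lo arrays for 24 of the 37 genes and above both for 2, while over all genes 25.4% lay below and 30.0% above. With the arrays shifted to 1 median, 20 of the 37 lay below and 5 above, against 19.7% and 40.8% of all genes.

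The limma test called 0 of the 86 probe sets at an adjusted p under 0.05 over all 45037 probe sets, where 0% were called in either direction. The smallest adjusted p among the 86 was 0.11, and the smallest of all was 0.0839. At an unadjusted p under 0.05, 9 of the 37 genes were lower in Hi and 0 higher, against 11.0% and 9.25% of all genes. Leaving out any single array lowered the count of 9. Such a fit has 1 array in a group, and the share of all genes was not counted for it. Without single arrays the median difference of the 37 genes ran from -0.34 to -0.28. A fit on each gene's mean over its probe sets called 252 genes higher (1.39%) and 276 lower (1.52%) of 18193, and a fit on 1 probe set per gene called 190 (1.04%) and 214 (1.18%); 0 of the 37 were among the calls of either. At an unadjusted p under 0.05 the fit on the mean had 11 of the 37 genes lower and 1 higher, and the share of all genes was not counted. The size of a difference often rested on 1 array or 1 probe set. Leaving out a single array moved it by over 1.5 times for 21 of the 37 genes. The mean over probe sets did so for 17 of the 27 genes with more than 1 probe set.

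All 37 brightest probe sets lay above the dim limit on all 4 arrays, a limit between 4.74 and 4.87 set by the brightest of 27 bacterial control probe sets on each array. Of the 18193 genes, 11912 did so too. Among those, 31.5% had both Hi arrays below both Lo arrays and 14.2% were lower at an unadjusted p under 0.05. Of their differences 51.7% were negative, with a median of -0.02. The brighter genes as a whole were thus lower in Hi somewhat more often than all genes. At that p they were also higher more often, at 12.0% against 9.25% of all genes.

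**Figure D1:**
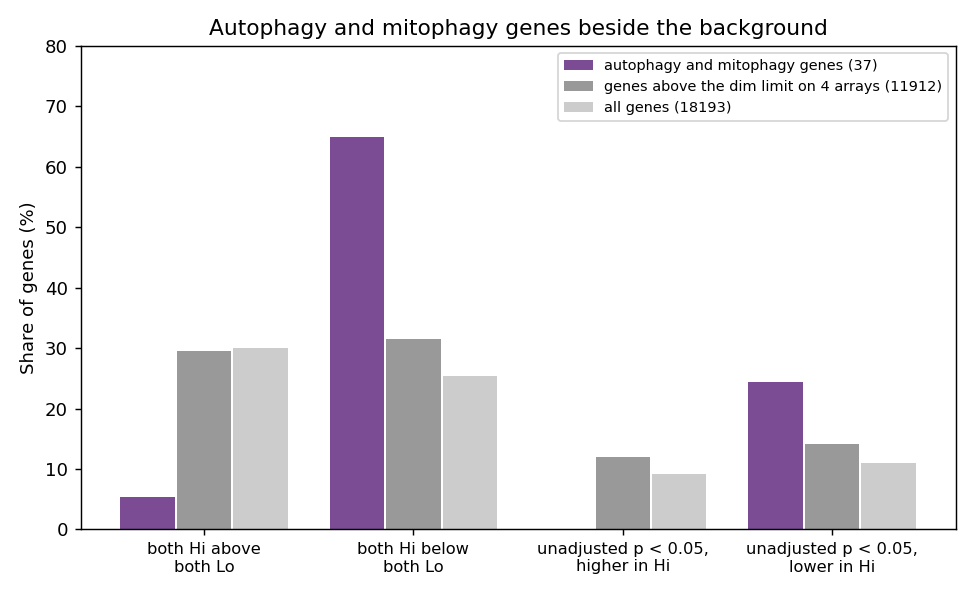
Share of genes (%) in 4 classes for the 37 autophagy and mitophagy genes, the 11912 genes above the dim limit on all 4 arrays and all 18193 genes. Of the 37 genes, 64.9% had both Hi arrays below both Lo arrays, against 31.5% and 25.4%, and 5.41% had both above, against 29.5% and 30.0%.

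Marker genes of blood lineages moved with the same groups, and their part in the values here was not tested. The summed linear intensity of 11 measured erythroid markers came to 19183 and 22757 in Hi and 3507 and 4159 in Lo, with Alas2 no brighter than the dim limit on any array. For 8 granulocyte-monocyte markers it came to 57152 and 53572 in Hi, against 24588 and 23261 in Lo. For 12 long-term stem cell markers it came to 8250 and 7968 in Hi, against 24242 and 21550 in Lo. The Hi arrays were both above the Lo arrays for 9 of the 11 erythroid and all 8 granulocyte-monocyte markers, and below for all 12 stem cell markers. Of the gate genes Kit was bright in both groups, and Ly6a, which encodes Sca1, had no probe set named in the annotation used here. Kit and the progenitor genes Cd34 and Flt3 together had a sum of 15213 and 16587 in Hi and 16474 and 16684 in Lo. The 10 measured markers of mature cells had no common direction, with 5 positive and 5 negative differences, and summed to 16412 and 15149 in Hi and 15488 and 13937 in Lo. Some were bright, such as the myeloid gene Lyz2 at 12.85 and 12.76 in Hi and 13.06 and 13.01 in Lo and the cytotoxic cell gene Nkg7 at 12.94 and 12.83 in Hi and 12.49 and 12.19 in Lo. The T cell gene Cd3e lay between 5.24 and 5.71 on all arrays, and Cd8a had 5.62 and 5.44 in Hi and 6.88 and 6.55 in Lo. As a sign of RNA quality, the control probe sets at the 3′ end of Gapdh exceeded those at its 5′ end by 0.63 and 0.66 on the log2 scale on the Hi arrays, against 0.74 and 0.78 on the Lo arrays. For Actb this excess was 0.60 and 0.55 on the Hi arrays and 0.84 and 0.57 on the Lo arrays, with overlap.

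In the initiation kinase complex both kinase genes were lower in Hi by their brightest probe sets, while their partners showed no common direction. Ulk2, a kinase that starts autophagy, had log2 intensities of 9.18 and 9.48 in Hi and 10.23 and 9.99 in Lo. The groups did not overlap, and the difference was -0.78 ± 0.19 (SE), 1.72-fold lower in Hi, with a limma adjusted p of 0.171. Its 3 other probe sets gave smaller differences of -0.25, -0.31 and -0.03, the last pair with overlap, and the mean of all 4 gave -0.34. Its paralogue Ulk1, the better known of the pair as a target of mTORC1 and AMPK, had 9.55 and 9.51 in Hi and 9.90 and 10.42 in Lo. Again all Hi values lay below the Lo values, with a difference of -0.63 ± 0.23 (SE) and a limma adjusted p of 0.28; without Lo replicate 2 the difference was -0.37, and the mean over both Ulk1 probe sets gave -0.41.

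Rb1cc1, the scaffold protein FIP200 of this complex, had 10.54 and 10.48 in Hi and 11.73 and 10.31 in Lo. The groups overlapped: the Lo arrays lay 1 on each side of the Hi arrays, and the difference of -0.51 ± 0.52 (SE) was 0.20 without Lo replicate 1. A second Rb1cc1 probe set was lower in Hi on both arrays, at 8.85 and 9.02 in Hi and 9.33 and 10.07 in Lo. Atg13, the adaptor that links the kinases to the scaffold, stood at 0.08 ± 0.18 (SE) by its brightest probe set, whose groups overlapped. Another of its probe sets had 7.19 and 7.28 in Hi and 7.89 and 8.33 in Lo, a difference of -0.88 ± 0.21 (SE) with a limma adjusted p of 0.165. These probe sets disagreed, so no direction is given for Atg13. Atg101, which binds and steadies Atg13, had 10.88 and 10.45 in Hi and 10.19 and 10.41 in Lo. It was 1 of 2 genes of the 37 with both Hi arrays above both Lo arrays, by a difference of 0.36 ± 0.21 (SE), or 0.15 without Hi replicate 1.

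**Figure D2:**
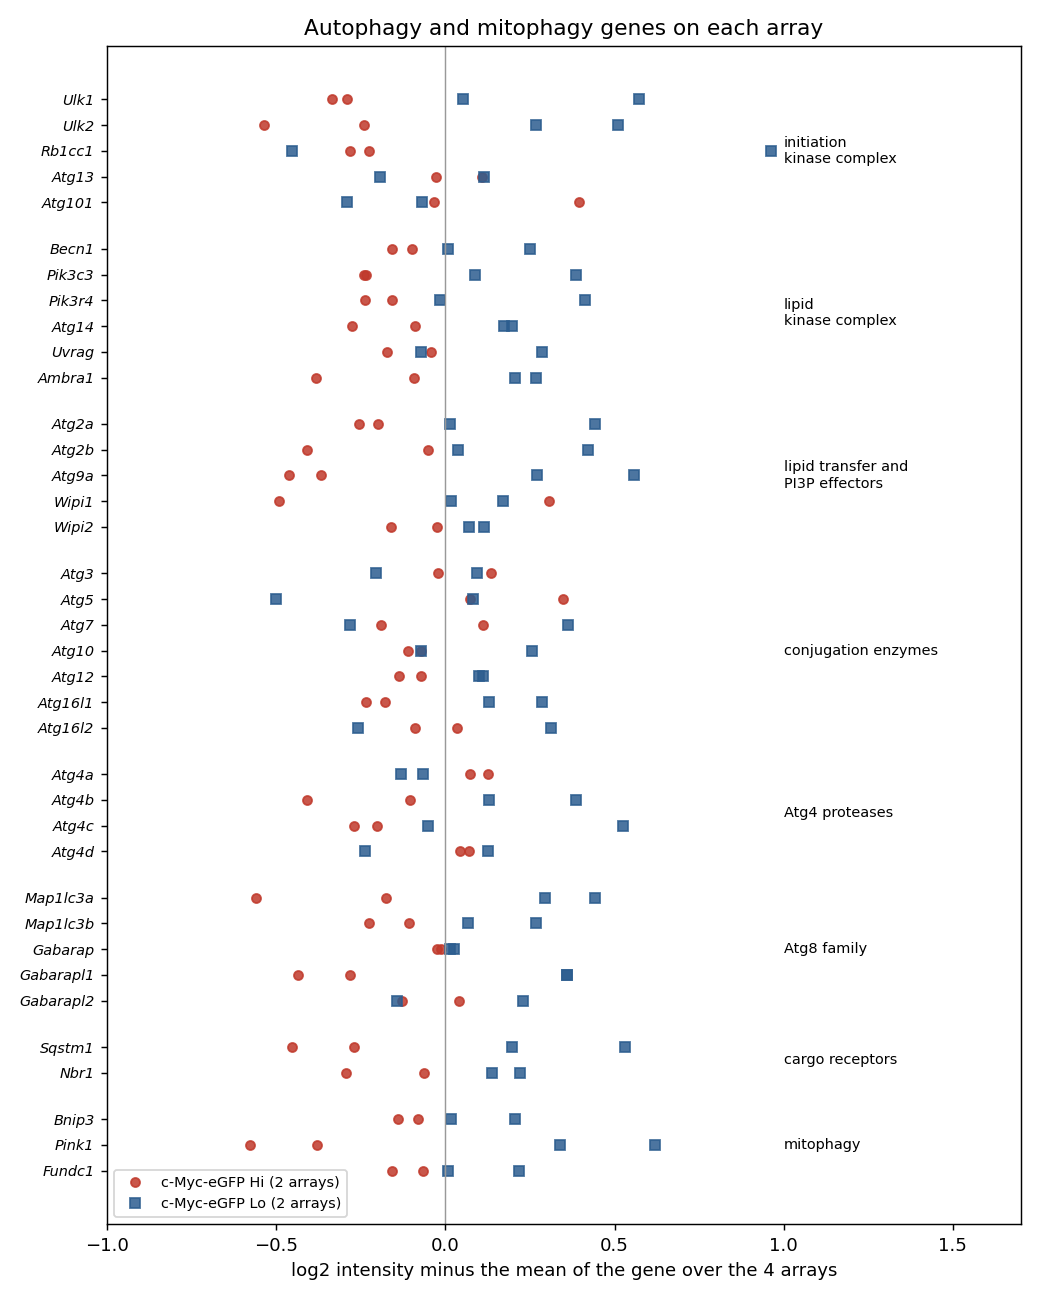
Log2 intensity of each of 37 genes on each array, minus that gene's mean over the 4 arrays (x axis), with genes in rows grouped by role; circles are the 2 Hi arrays and squares the 2 Lo arrays. For 24 genes both circles lie left of both squares, and for 2, Atg101 and Atg4a, both lie right of them.

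All 6 listed genes of the lipid kinase complex had negative differences, from -0.21 to -0.48, and 5 had both Hi arrays below both Lo arrays. On that side lay 25.4% of all genes and 31.5% of those above the dim limit. Nrbf2, a subunit of the complex outside the listed genes, went the other way at 0.71 ± 0.16 (SE). Pik3c3, the catalytic subunit Vps34, had 10.02 and 10.01 in Hi and 10.34 and 10.64 in Lo, a difference of -0.47 ± 0.17 (SE) with a limma adjusted p of 0.271. Ambra1, which binds Becn1 and supports the complex, had 8.68 and 8.38 in Hi and 8.97 and 9.04 in Lo. Its difference was -0.48 ± 0.17 (SE), with a limma adjusted p of 0.27; the mean over its 3 probe sets, of which the others were dim on at least 3 arrays, gave -0.26. These 2 were the genes among the 6 with an unadjusted p under 0.05.

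Pik3r4, the regulatory subunit Vps15, stood at -0.40 ± 0.20 (SE) and Atg14, which directs the complex to autophagy, at -0.37 ± 0.14. Uvrag, which takes the place of Atg14 in the form of the complex that acts on endosomes, stood at -0.21 ± 0.19 and was the gene whose groups overlapped. Without Lo replicate 2 the difference was -0.18 for Pik3r4 and -0.04 for Uvrag. Becn1, the core subunit beclin 1, had 11.42 and 11.48 in Hi and 11.82 and 11.58 in Lo by its brightest probe set, a difference of -0.25 ± 0.16 (SE), or -0.13 without Lo replicate 1. Another bright Becn1 probe set had 10.78 and 10.87 in Hi and 10.66 and 10.68 in Lo, a difference of 0.16 ± 0.13. The 2 bright probe sets of Becn1 thus lay on opposite sides of 0.

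**Figure D3:**
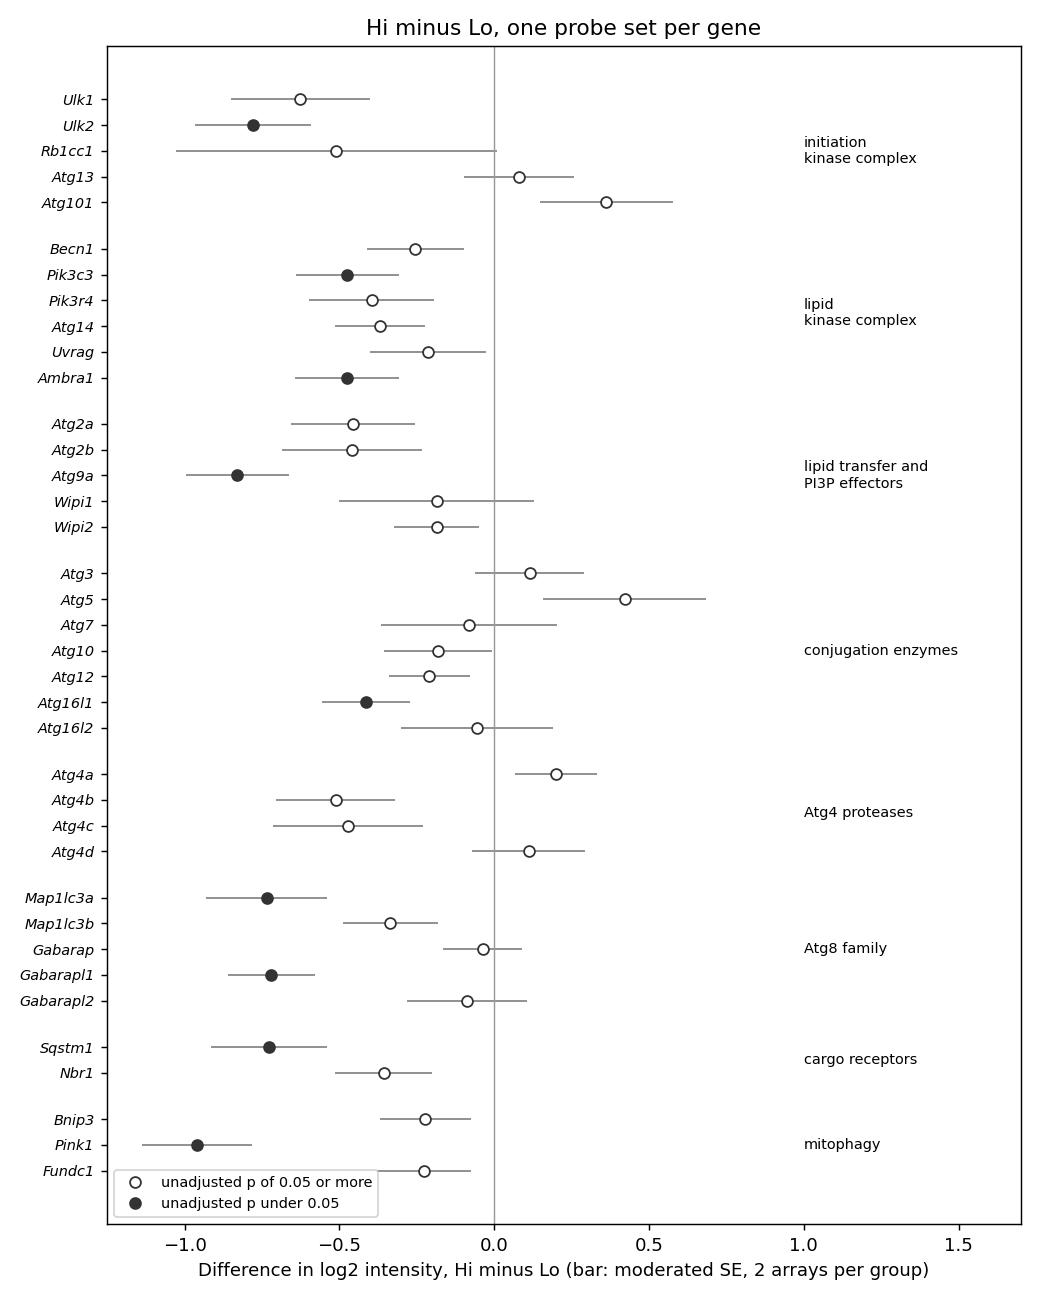
Difference in log2 intensity, Hi minus Lo, for the brightest probe set of each of 37 genes (x axis), with genes grouped by role; bars are the moderated SE with 2 arrays per group and filled points have an unadjusted p under 0.05. The differences run from -0.96 for Pink1 to 0.42 for Atg5, and the 9 filled points all lie left of 0.

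Among the genes that supply membrane or read PI3P, Atg9a stood out by size. Atg9a encodes a transmembrane lipid scramblase carried on vesicles that seed the new membrane. It had 8.15 and 8.05 in Hi and 8.78 and 9.07 in Lo, 1.78-fold lower in Hi, with a difference of -0.83 ± 0.17 (SE) and a limma adjusted p of 0.141. Leaving out single arrays, this difference ran from -0.97 to -0.69. Atg2a and Atg2b, whose proteins carry lipids into the growing membrane, had differences of -0.46 ± 0.20 and -0.46 ± 0.23 (SE), each with both Hi arrays below both Lo arrays. Without Lo replicate 2 these were -0.24 and -0.27. A second bright Atg2b probe set stood at -0.29 ± 0.13, and the mean over all 3, of which the last was dim on all arrays, gave -0.11. Wipi2, which reads PI3P and recruits Atg16l1, stood at -0.19 ± 0.14, or -0.12 without Hi replicate 2, but at 0.20 ± 0.16 by its other bright probe set, and Wipi1 stood at -0.19 ± 0.32 with overlapping groups.

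The genes of the conjugation system had a median difference of -0.08, with overlapping groups for 5 of 7 genes. Over all genes the groups overlapped for 8123 of 18193. Atg16l1, which places the conjugation machinery on the membrane, was the exception at an unadjusted p under 0.05. It had 7.17 and 7.22 in Hi and 7.69 and 7.53 in Lo, a difference of -0.41 ± 0.14 (SE) with a limma adjusted p of 0.261. Atg12, the ubiquitin-like modifier, had 11.93 and 11.86 in Hi and 12.10 and 12.11 in Lo, a difference of -0.21 ± 0.13. Another bright Atg12 probe set went the other way at 0.35 ± 0.24 with overlap, and the mean over all 3 gave -0.03, so no direction is given for Atg12. The activating enzyme gene Atg7 stood at -0.08 ± 0.28, or 0.014 with the arrays shifted to 1 median, and the conjugating enzyme gene Atg10 at -0.18 ± 0.17, or -0.02 without Lo replicate 2. Atg16l2, a relative of Atg16l1, stood at -0.06 ± 0.24, or 0.039 after that shift. Its dimmer probe set had 4.09 and 5.20 in Hi, the first below the dim limit, and 5.82 and 6.07 in Lo, a difference of -1.30 ± 0.42 with a limma adjusted p of 0.245; the mean of both gave -0.68.

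Atg5, the target to which Atg12 is joined, gave opposite values by probe set. Its brightest probe set had 10.09 and 9.81 in Hi and 9.82 and 9.23 in Lo, with overlapping groups and a difference of 0.42 ± 0.26 (SE), the highest among the 37 brightest probe sets and 0.13 without Lo replicate 2. The other probe sets had 8.73 and 8.86 in Hi and 9.22 and 9.22 in Lo, and 8.32 and 8.50 in Hi and 8.91 and 8.79 in Lo. Both of these were lower in Hi with no overlap, by differences of -0.42 ± 0.14 and -0.44 ± 0.15, so no direction is given for Atg5. Atg3, which passes the Atg8 proteins to the lipid, had 10.70 and 10.85 in Hi and 10.81 and 10.51 in Lo, a difference of 0.11 ± 0.18 with overlap. A dim Atg3 probe set had 5.64 and 5.78 in Hi and was no brighter than the dim limit on either Lo array, which makes it at least 1.93-fold higher in Hi (limma adjusted p of 0.168). It was the 1 of the 86 probe sets that was higher in Hi at an unadjusted p under 0.05, against 18 that were lower; over all probe sets 9.05% were higher and 8.91% lower.

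Promoter windows of RefSeq (build GRCm38.p6), 250 bases before to 50 after a start, were at hand for 32 of the 39 listed genes, 35 windows in all. The E-box CACGTG, the motif bound by c-Myc with Max and by the TFEB family, reads alike on both strands. It was found in 5 of the 35 windows (14.3%), those of Atg3, Atg5, Atg7, Atg14 and Bnip3, against 7.15% of all 32851 windows. GTAAACA, searched on either strand as the FoxO motif in that form only, was in 0 of the 35 and in 3.65% of all windows. The motifs do not overlap. The brightest probe sets had differences of 0.11 for Atg3 and -0.08 for Atg7, both with overlap, and of -0.37 for Atg14 and -0.22 for Bnip3, both without, while the probe sets of Atg5 disagreed. A match describes the letters and not binding. The windows of Atg3, with 2 E-boxes, and of Atg5, whose probe sets disagreed, are shown as the 250 bases before the start, 5′ to 3′, with E-boxes in capitals, beside that of the mitophagy receptor gene Bnip3.
Atg3 promoter, chr16:45158579-45158828, + strand: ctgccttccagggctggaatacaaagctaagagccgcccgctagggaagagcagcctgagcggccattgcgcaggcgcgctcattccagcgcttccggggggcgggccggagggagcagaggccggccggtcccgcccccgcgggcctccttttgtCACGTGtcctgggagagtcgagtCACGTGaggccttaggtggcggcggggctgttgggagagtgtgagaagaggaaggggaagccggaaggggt
Atg5 promoter, chr10:44268089-44268338, + strand: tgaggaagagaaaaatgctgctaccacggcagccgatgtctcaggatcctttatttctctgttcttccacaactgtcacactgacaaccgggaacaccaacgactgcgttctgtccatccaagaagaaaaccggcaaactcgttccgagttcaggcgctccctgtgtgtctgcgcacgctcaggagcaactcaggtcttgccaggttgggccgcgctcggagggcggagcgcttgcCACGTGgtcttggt
Bnip3 promoter, chr7:138909507-138909756, - strand: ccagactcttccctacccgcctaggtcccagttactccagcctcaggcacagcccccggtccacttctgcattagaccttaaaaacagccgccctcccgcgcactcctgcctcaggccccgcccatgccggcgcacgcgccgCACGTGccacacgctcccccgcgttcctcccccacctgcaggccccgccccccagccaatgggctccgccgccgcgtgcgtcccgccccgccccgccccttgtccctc

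The Atg4 proteases, which trim the Atg8 proteins and release them from the membrane, were split by gene. Atg4b, the protease with the widest range of substrates, had 9.28 and 9.58 in Hi and 9.81 and 10.07 in Lo, a difference of -0.51 ± 0.19 (SE). A second bright Atg4b probe set stood at 0.05 ± 0.21. Atg4c was lower in Hi with no overlap, at -0.47 ± 0.24, or -0.18 without Lo replicate 1. Atg4a had 8.82 and 8.88 in Hi and 8.68 and 8.62 in Lo, a difference of 0.20 ± 0.13, with no overlap of the groups. Atg4d stood at 0.11 ± 0.18 with overlap.

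Of the 5 Atg8 family genes, Gabarapl1, Map1lc3a and Map1lc3b were lower in Hi by every probe set they had, while Gabarap itself barely differed. Gabarapl1 encodes a member of the GABARAP branch and is a known FoxO target. It had 11.73 and 11.88 in Hi and 12.52 and 12.53 in Lo, with a wide gap between the groups. The difference was -0.72 ± 0.14 (SE), 1.65-fold lower in Hi, with a limma adjusted p of 0.135. Its other probe set had 11.26 and 11.38 in Hi and 12.30 and 12.16 in Lo, a difference of -0.91 ± 0.14 with a limma adjusted p of 0.11, the smallest of the 86. The mean of both probe sets in the fit per gene gave -0.81 with an adjusted p of 0.0612, still above 0.05.

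The 250 bases before the Gabarapl1 start are shown because it had that smallest p. They held neither the E-box nor GTAAACA in these exact letters, which says nothing of the factors themselves. Other forms of the FoxO motif were not searched.
Gabarapl1 promoter, chr6:129532942-129533191, + strand: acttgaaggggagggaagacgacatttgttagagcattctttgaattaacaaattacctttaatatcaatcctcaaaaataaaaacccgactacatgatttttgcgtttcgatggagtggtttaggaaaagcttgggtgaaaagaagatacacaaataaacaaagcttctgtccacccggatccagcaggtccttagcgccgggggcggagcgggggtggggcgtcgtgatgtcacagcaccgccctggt

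Map1lc3b, the LC3 gene whose protein is the usual marker of autophagosomes, had 4 probe sets. The brightest had 11.90 and 12.02 in Hi and 12.19 and 12.39 in Lo, a difference of -0.34 ± 0.15 (SE). A second had 11.99 and 11.67 in Hi and 12.36 and 12.42 in Lo, a difference of -0.56 ± 0.17. Another had 10.30 and 10.19 in Hi and 11.04 and 11.15 in Lo, a difference of -0.85 ± 0.14 with a limma adjusted p of 0.113. The last stood at -1.67 ± 0.86, with Lo arrays at 10.39 and 8.02 that were far apart. In none of the 4 did the groups overlap, so the sign was shared and the size was not.

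Map1lc3a, its paralogue, had 8.43 and 8.05 in Hi and 9.05 and 8.90 in Lo, 1.66-fold lower in Hi, with a difference of -0.73 ± 0.19 (SE) and a limma adjusted p of 0.191. Gabarap had 12.49 and 12.48 in Hi and 12.51 and 12.52 in Lo, a difference of -0.04 ± 0.13 or 0.057 once the arrays had been shifted to 1 median. Gabarapl2, also of the GABARAP branch, stood at -0.09 ± 0.19, or 0.0064 after that shift, while its dimmer probe set had 8.02 and 8.03 in Hi and 8.59 and 8.63 in Lo. That dimmer probe set was lower in Hi by a difference of -0.58 ± 0.13, with a limma adjusted p of 0.156.

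Both measured cargo receptor genes were lower in Hi with no overlap by their brightest probe sets. Sqstm1, which encodes p62 and links ubiquitinated cargo to the Atg8 proteins, had 10.30 and 10.49 in Hi and 10.96 and 11.29 in Lo. The difference was -0.73 ± 0.19 (SE), 1.65-fold lower in Hi, with a limma adjusted p of 0.185, and its dimmer probe set stood at -1.37 ± 0.52. Nbr1, a receptor built like p62, had 11.96 and 11.72 in Hi and 12.15 and 12.24 in Lo, a difference of -0.36 ± 0.16. Its other bright probe set had 7.63 and 8.17 in Hi and 7.95 and 8.12 in Lo, which overlapped, with a difference of -0.14 ± 0.24.

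Among the mitophagy genes Pink1 had the lowest difference of the 37. Pink1 is the kinase that builds up on damaged mitochondria and phosphorylates ubiquitin there. It had 10.94 and 11.13 in Hi and 11.85 and 12.13 in Lo, 1.94-fold lower in Hi, with a difference of -0.96 ± 0.18 (SE) and a limma adjusted p of 0.128. Its second probe set had 10.82 and 11.19 in Hi and 11.85 and 12.09 in Lo, a difference of -0.97 ± 0.20. Both probe sets gave the same size, and without single arrays the value ran from -1.10 to -0.82. The bases before its start, shown as those of the gene with the largest difference, held neither CACGTG nor GTAAACA.
Pink1 promoter, chr4:138326297-138326546, - strand: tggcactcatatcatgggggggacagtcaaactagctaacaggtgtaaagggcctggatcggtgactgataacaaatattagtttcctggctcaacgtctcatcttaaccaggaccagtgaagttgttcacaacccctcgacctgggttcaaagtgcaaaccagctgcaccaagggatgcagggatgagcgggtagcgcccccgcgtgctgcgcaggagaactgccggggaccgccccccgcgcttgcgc

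The receptors that sit in the outer mitochondrial membrane differed by less than Pink1. Bnip3, a receptor known to be induced by HIF in low oxygen, had 10.47 and 10.53 in Hi and 10.63 and 10.82 in Lo, a difference of -0.22 ± 0.15 (SE). Fundc1, a receptor that also acts in low oxygen, had 11.42 and 11.51 in Hi and 11.79 and 11.58 in Lo, a difference of -0.23 ± 0.15. Both had groups that did not overlap, and a second bright Fundc1 probe set stood at 0.02 ± 0.13. Without single arrays the difference was as small as -0.13 for Bnip3, without Lo replicate 2, and -0.12 for Fundc1, without Lo replicate 1. The 3 probe sets shared by Bnip3l and its pseudogene cannot be assigned to Bnip3l, the receptor used in red cell maturation. They had levels from 11.42 to 11.84 in Hi and from 11.78 to 12.30 in Lo, and differences of -0.33 ± 0.13, -0.41 ± 0.14 and -0.41 ± 0.14, each with both Hi arrays below both Lo arrays. These shared probe sets lay lower in Hi while the summed erythroid markers lay higher. Of the 11 markers, 9 had both Hi arrays above both Lo arrays. The exceptions were Slc4a1, at -0.16 ± 0.38 (SE) with overlap, and Alas2, dim on all arrays. A link between the markers and these probe sets was not tested.

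Of the 37 genes, 27 had more than 1 probe set, with 49 further probe sets beside the brightest. Above the dim limit on all 4 arrays were 30 of these, and of the 30, 23 had negative differences and 17 had both Hi arrays below both Lo arrays. Among the 30, a probe set of opposite sign to the brightest occurred in 8 genes, Becn1, Atg4b, Atg5, Atg12, Atg13, Wipi1, Wipi2 and Fundc1. Over all 86 probe sets 48 lay below and 8 above, against 22.0% and 29.3% of all probe sets.

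**Figure D4:**
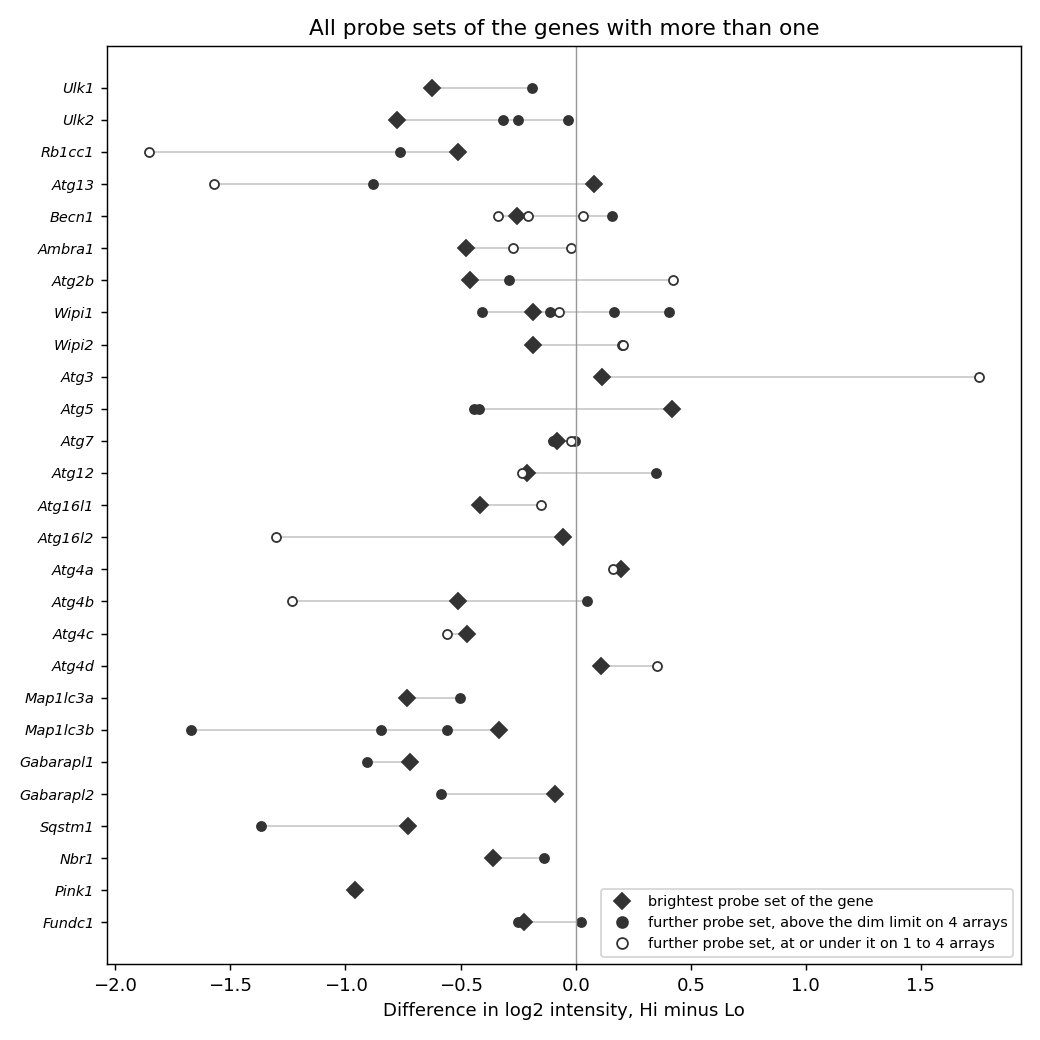
Difference in log2 intensity, Hi minus Lo, for every probe set of the 27 genes with more than 1 (x axis, genes in rows); diamonds are the brightest probe set, filled circles further probe sets above the dim limit on 4 arrays and open circles those dim on 1 to 4 arrays. All probe sets of Pink1, Gabarapl1, Map1lc3b and Sqstm1 lie left of 0, while those of Atg5 and Becn1 lie on both sides.

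Further genes of the pathway, 58 in 4 lists of which 57 were measured, gave 0 calls by limma at an adjusted p under 0.05. At an unadjusted p under 0.05, 10 were lower and 3 higher in Hi, against 11.0% and 9.25% of all genes. Leaving out either Hi array lowered the count of 10, in a fit with 1 array in that group. The 10 include Eva1a, which was dim on all 4 arrays. With dim probe sets left out, 8 of 55 were lower and 2 higher, and the share of all genes was not counted for that fit. Over all genes 46.4% of differences were negative, or 36.4% with the arrays shifted to 1 median. Among 18 further core and late-step factors 13 were negative (median -0.22), or 12 after the shift. Atg9b, a paralogue of Atg9a, ran opposite to it: it had 7.80 and 7.85 in Hi and 6.15 and 6.22 in Lo, a difference of 1.64 ± 0.13 (SE), 3.11-fold higher in Hi. Its limma adjusted p of 0.0839 did not pass, but it was called in the fit on 1 probe set per gene (0.0386) and in that on the mean of its 2 probe sets (0.0426, difference 0.98). Tecpr1, a tether of autophagosomes to lysosomes, stood at -1.32 ± 0.23, or -0.75 by the mean over its 3 probe sets. Nrbf2, a subunit of the lipid kinase complex, stood at 0.71 ± 0.16.

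All 12 further selective receptors had negative differences (median -0.23), but 9 did after the arrays were shifted to 1 median. Both Hi arrays lay below both Lo arrays for 5 of the 12, against 25.4% of all genes. Calcoco1, a receptor for the endoplasmic reticulum and Golgi, had 10.21 and 10.35 in Hi and 11.22 and 11.33 in Lo. The difference was -0.99 ± 0.14 (SE) with a limma adjusted p of 0.102, and the mean over its 2 probe sets gave -0.58. Ccpg1, also a receptor for the endoplasmic reticulum, stood at -0.53 ± 0.14, or -0.77 by the mean over its 2 probe sets. The glycogen receptor gene Stbd1 was above the dim limit on 1 of the 4 arrays, Lo replicate 1 at 5.15, so no fold is given for it.

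The 18 measured further mitophagy genes had no common sign, with 12 positive and 6 negative differences (median 0.06), or 13 and 5 after the shift. Tbk1, the kinase that activates cargo receptors, had 9.87 and 9.77 in Hi and 10.46 and 10.56 in Lo, a difference of -0.69 ± 0.14 (SE). Usp30, a deubiquitinase of the outer mitochondrial membrane, stood at -1.19 ± 0.34, or -0.79 without Lo replicate 1, and Usp8, a deubiquitinase that also acts on endosomes, at 0.43 ± 0.15.

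Of 9 transcription factors that control autophagy genes 7 had negative differences (median -0.20), or 5 after the shift. Foxo1, of the family that activates Gabarapl1 and other autophagy genes, had 8.69 and 8.58 in Hi and 9.64 and 9.91 in Lo. The difference was -1.14 ± 0.17 (SE) with a limma adjusted p of 0.102, and the mean over its 4 probe sets gave -0.72. Mitf, of the TFEB family, had 9.53 and 9.85 in Hi and 10.44 and 10.37 in Lo. Its difference was -0.72 ± 0.17, or -0.50 by the mean over its 2 probe sets. Tfe3 of that family stood at -0.28 ± 0.14.

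**Figure D5:**
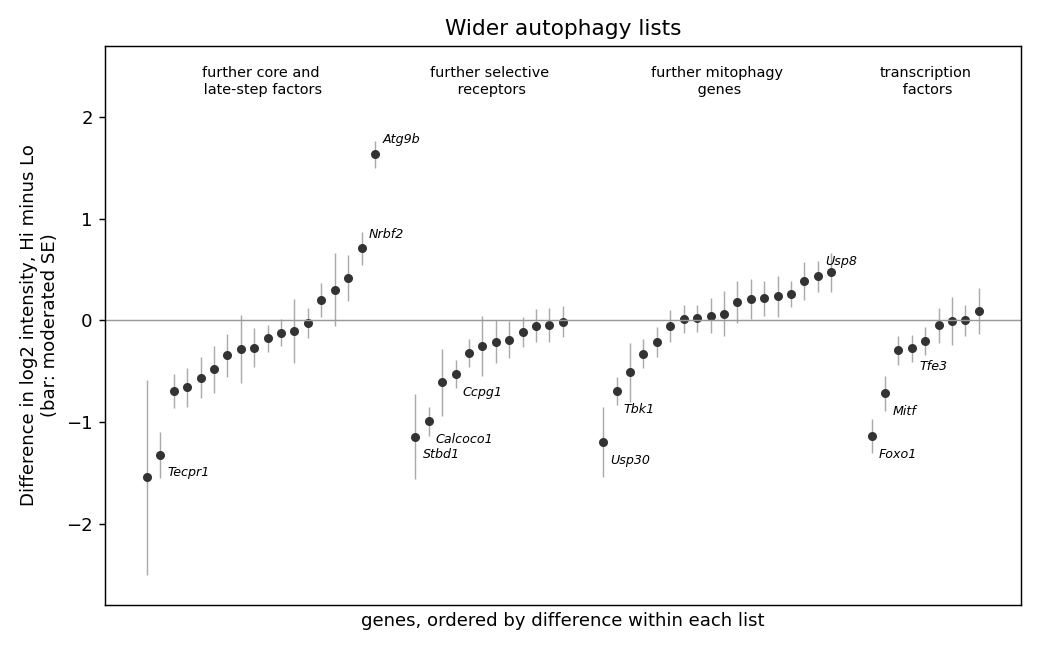
Difference in log2 intensity, Hi minus Lo, of the 57 measured genes of the 4 wider lists (y axis, bars the moderated SE), ordered within each list; the 3 genes with the smallest p of each list are named. Atg9b lies highest at 1.64, and all 12 receptors lie below 0, as 9 do once the arrays are shifted to 1 median.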

How the data were processed

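The authors deposited a linear intensity for each probe set of each array. Per the submitters' processing notes it was made with RMA, in a version not given in the sources used here; RMA draws the array distributions together and hides any shift in RNA content per cell. Intensities were log2-transformed with no offset, which gave array medians of 5.70 and 5.71 in Hi and 5.78 and 5.82 in Lo. Hi minus Lo was fitted over 4 arrays and all 45037 non-control probe sets with limma 3.58.1 in R 4.3.3 (lmFit, eBayes, two-sided, no block), with Benjamini-Hochberg adjustment over all of them and a threshold of 0.05; the steps were tested on simulated data. Of these, 34945 had 1 gene symbol, 932 several and 9160 none. A gene was represented by its probe set with the highest mean.

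All 39 listed genes were to be named, and of each wider list the 3 with the smallest p where none passed. The genes, lists and tests were chosen with earlier results of these data known, and the dim limit after the data were seen. Alternatives were an array shift to 1 median, the mean of all probe sets, 1 probe set per gene, a dim filter, an offset of 16, a variance trend, no moderation, the replicate block and leaving out each array. The number of arrays limits the precision.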

Additional observations from a re-analysis of the deposited data

How the results depend on the processing

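Over 12 alternatives 26 of the 37 genes kept their sign in all, and 427 of 444 values did. The fit on 1 probe set per gene, the dim filter, the variance trend, no moderation and the replicate block left each difference unchanged. They could therefore change no sign, and the 427 includes their values. Of the 37 genes 0 were called in any alternative that kept all 4 arrays. With each gene's mean over its probe sets the difference was -0.79 for Atg13, -0.15 for Atg5 and 0.074 for Wipi2. With the arrays shifted to 1 median it was 0.014 for Atg7, 0.039 for Atg16l2, 0.057 for Gabarap and 0.0064 for Gabarapl2. Leaving out single arrays, the difference ran from -1.22 to 0.20 for Rb1cc1, -0.075 to 0.24 for Atg13, -0.035 to 0.26 for Atg3, -0.070 to 0.29 for Atg4d, -0.40 to 0.24 for Atg7, -0.34 to 0.23 for Atg16l2, -0.58 to 0.21 for Wipi1 and -0.27 to 0.098 for Gabarapl2. The count of the 37 genes at an unadjusted p under 0.05 was 1 higher with the mean of all probe sets and 1 without moderation, and 14 lower with the offset of 16. Without single arrays it ran from 0 to 1 higher and from 3 to 8 lower, and for the wider lists from 1 to 2 higher and from 5 to 10 lower. Of the wider lists 1 gene, Atg9b, was called higher with the mean of all probe sets and 1, again Atg9b, with 1 probe set per gene. The cause of these shifts was not tested.

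The replicate numbers of the labels say nothing of a shared mouse or day. The deviations of Hi replicate 1 and Lo replicate 1 correlated at 0.07 over probe sets. This 1 correlation cannot show whether arrays of the same number share a mouse or a day. With the replicate block 7 of the 37 genes were lower and 0 higher at an unadjusted p under 0.05, and 0 were called (smallest adjusted p = 0.195). The share of all genes at that unadjusted p was not counted with the block. Of the 86 probe sets 10 were no brighter than the dim limit on any array, and their differences carry no order.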
